A study of Homo sapiens with 2 samples.

Results

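TRAK1, BICD1, CLASP2 and MAPRE2 are genes of microtubule-based organelle transport and of the growing microtubule end, and the peaks assigned to them in a TCF4 chromatin immunoprecipitation (ChIP-seq) table are described here. The 4 genes were chosen by function and from their listed peaks, with the values of the table known, so that they have peaks is not a result. All rows with one of these gene names were taken, which gave 19 of the 662 listed peaks and 4 of the 275 listed genes. TRAK1 had 9 peaks, BICD1 had 6, CLASP2 had 3 and MAPRE2 had 1.

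The table comes from SU-DHL-2, an established human lymphoma cell line of the activated B-cell type (ABC-DLBCL, an aggressive cancer of mature B cells), which per the series' design text carries no extra copies of TCF4. The cells carried TCF4 under tetracycline control and were given 60 ng/ml doxycycline for 24 hours before fixation. The series has 1 library precipitated with a TCF4 antibody and 1 input library of whole-cell extract from cells with the same labels, so both share the induced TCF4 and neither has a replicate. No library of cells without induction was used here, so binding of induced TCF4 and of TCF4 that the line made itself cannot be told apart. Per its headers the table is restricted to the peaks of genes in a TCF4 signature. All 4 genes are marked Up in it, as are 229 of the 275 listed genes, without a statement of the reference.

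Cargo such as mitochondria and vesicles moves along microtubules on kinesin and dynein motors, and adaptor proteins tie a cargo to a motor. TRAK1 is an adaptor that joins mitochondria to kinesin and dynein, through the Miro proteins of the outer mitochondrial membrane. BICD1 is a dynein adaptor that works with dynactin and binds vesicles through the GTPase Rab6. CLASP2 and MAPRE2 (EB2) bind growing microtubule plus ends, where CLASP proteins stabilise the polymer and EB proteins recruit other factors. TCF4 (E2-2) is a basic helix-loop-helix transcription factor that binds E-box motifs. It is not itself a microtubule protein, and the table reports sites on DNA and no expression.

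The values are counts of reads per peak as deposited. Enrichment is given as a fold, the ratio of ChIP to input reads after scaling for the 2 libraries. Intervals in parentheses are at 95%. Those of folds and of ratios of folds cover counting error only, since reads are not independent molecules and 1 library stands on each side. The 19 peaks held 2582 ChIP reads and 382 input reads, 3.55% of the ChIP reads in the listed peaks. Their ChIP reads per peak ran from 34 to 603 with a median of 103, against a median of 91 over the whole table. The deposited log2 ratio is nowhere below 2.01 in the table, so weaker sites of these genes, if any, are not seen. Of the 19 peaks, 8 lay within 0.2 of that lowest log2 ratio (42.1%, against 28.5% of all listed peaks), so the lower end of the folds below is set by what was listed.

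**Figure D1:**
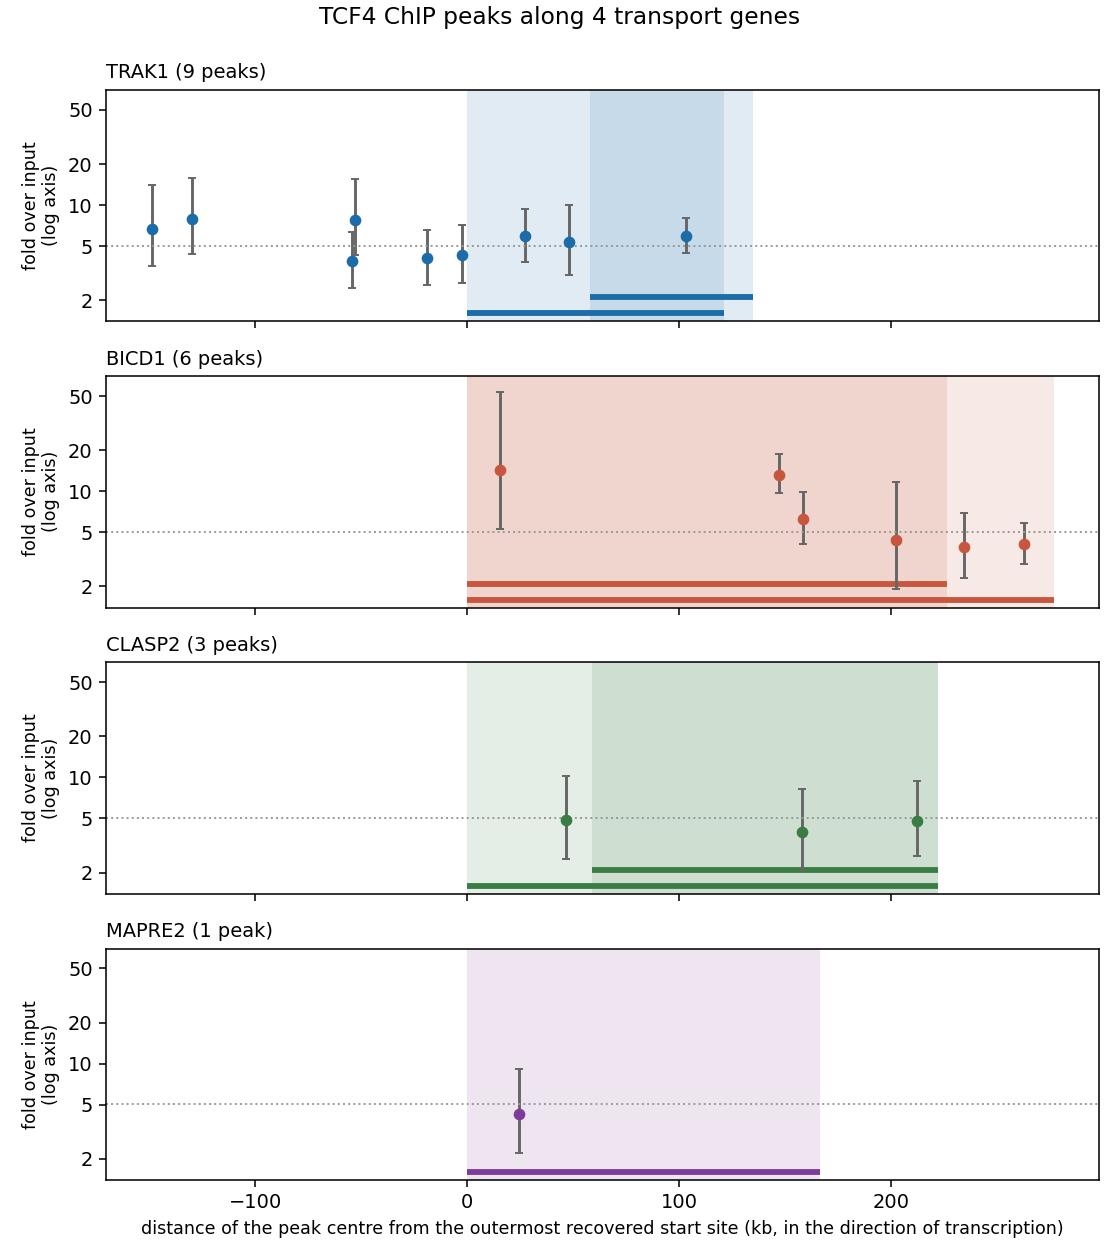
Each point is a peak of TRAK1, BICD1, CLASP2 or MAPRE2, at the distance of its centre from the outermost recovered start site (x axis, kb) and at its fold over input (y axis, log scale), with 95% counting intervals; coloured bars and shading are the recovered transcripts, and the dotted line is the median fold of all listed peaks, 5.01. TRAK1 has 6 peaks before the start site and 3 after it, whereas all peaks of the other genes fall inside a transcript, and the highest folds are at BICD1.

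The mitochondrial adaptor gene TRAK1, on the plus strand of chromosome 3 (hg19), had the most peaks of the 4 genes, and 6 of its 9 peaks lay before the start site of the assigned transcript. The 9 peaks spanned 253 kb, from 41983519 to 42236487. The authors assigned 8 of them to a transcript of 121 kb and the last to a shorter one of 76.7 kb that starts further along the gene. Numbered in the direction of transcription, the first pair of peaks lay far upstream. Peak 1 (41983519 to 41983964), 149 kb from the start site, held 82 ChIP reads against 11 in the input, 6.73-fold (3.57 to 14.0). Peak 2 (42002475 to 42002911), at 130 kb, held 106 and 12 reads and was enriched 7.97-fold (4.38 to 15.9), the highest fold of the gene. After a gap of 75.8 kb without a listed peak came a tight pair whose centres were 1.45 kb apart. Peak 3 (42078196 to 42078826) held 103 ChIP and 24 input reads, 3.87-fold (2.47 to 6.32). Its neighbour, peak 4 (42079735 to 42080187), held 104 ChIP reads but 12 input reads, 7.82-fold (4.29 to 15.6). The tight pair thus had almost the same ChIP reads, in peaks of 630 and 452 bp. Per length, the deposited ChIP density was 1.75 at peak 3 and 2.46 at peak 4, and the input density 0.452 and 0.315, so ChIP and input both differed. The ratio of the 2 folds was 2.01 with an interval of 0.911 to 4.67, which includes 1.

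Closer to the TRAK1 start site the folds were among the lower ones of the gene. Peak 5 (42113598 to 42114094), 18.9 kb upstream, held 108 ChIP and 24 input reads, 4.06-fold (2.59 to 6.61). Peak 6 (42130201 to 42130703) was the closest to a start site among all 19 peaks, 2.29 kb upstream, and was not marked as promoter by the authors. It held 104 and 22 reads, 4.27-fold (2.67 to 7.10). Its local −log10 p, the authors' value against the surroundings of the peak, was 5.80. That ranked 83 of 662 with ties, since the measure takes only 44 distinct values over the table. Peaks 5 and 6 thus had low folds beside local values of 5.37 and 5.80, both above the table's median of 4.20.

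Within the TRAK1 transcripts, the 3 peaks had similar folds although their reads differed. Peak 7 (42159843 to 42160502) lay 22.6% along its transcript and held 163 ChIP and 25 input reads, 5.88-fold (3.85 to 9.36). Peak 8 (42180772 to 42181151) lay 39.7% along it and held 89 and 15 reads, 5.36-fold (3.08 to 9.97). Peak 8 was also 9.76 kb before the start site of the shorter transcript, so it is inside one transcript and upstream of the other. Peak 9 (42235398 to 42236487), inside both transcripts and 45.2 kb past the second start site, held 349 ChIP and 53 input reads. At 1089 bp it was the widest of the 19 peaks and ranked 11 of 662 by width and by ChIP reads alike, but its fold of 5.94 (4.44 to 8.09) ranked only 207. All 9 TRAK1 intervals overlap one another, from the highest lower bound, 4.44, to the lowest upper bound, 6.32.

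Gene body and flank could be compared within TRAK1 alone, since the other 3 genes had no listed peak outside a transcript. The 3 body peaks together held 601 ChIP and 93 input reads, 5.83-fold (4.68 to 7.34). The 6 upstream peaks held 607 and 105 reads, 5.22-fold (4.24 to 6.48). Body and flank therefore carried about the same number of ChIP reads, in 2127 bp of body peaks and 2961 bp of flank peaks. The ratio of the folds, body over flank, was 1.12 (exact conditional interval 0.818 to 1.53), so a difference was not detectable at this depth. Adding the body peaks of the other genes gave 13 body peaks at 6.44-fold (5.67 to 7.32) and a ratio to the TRAK1 flank of 1.23 (0.958 to 1.58), which fell to 1.01 (0.776 to 1.30) without the strongest BICD1 peak. Over the other 643 listed peaks the ratio of body to flank was 1.02 (0.982 to 1.06). The upstream peaks are a flank only with respect to the transcripts that the authors assigned: the RefSeq record of TRAK1 in GRCh38.p14, another build whose coordinates were not used, is over 10% longer than both recovered transcripts together. The records of the other 3 genes are not over 10% longer than theirs. Whether some of the 6 upstream peaks lie inside a longer TRAK1 transcript was not tested.

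The dynein adaptor gene BICD1, on the plus strand of chromosome 12, held the 2 highest folds of the 19 peaks, and all its 6 peaks lay inside a transcript of 277 kb. From the first peak to the last they spanned 248 kb. Peak 1 (32274841 to 32275234), 15.3 kb after the start site, held 63 ChIP reads and 4 input reads. Its fold of 14.2 has a wide interval, 5.29 to 53.8, because of the 4 input reads, and its input density of 0.121 was the lowest of the 19 peaks. No peak was listed over the next 132 kb. Peak 2 (32406466 to 32407443), 53.2% along the transcript, held 603 ChIP reads, the second most of the whole table, and 41 input reads. Its fold was 13.3 (9.67 to 18.7), rank 17 of 662, and its deposited ChIP density of 6.60 was the highest of the 19. Only peaks 1 and 2 of BICD1 exceeded 8-fold in the 4 genes.

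The later BICD1 peaks had lower folds than peak 2, and 3 of these 4 held more ChIP reads than peak 1. The ChIP to input ratio of peak 1 over peaks 3 to 6 together, a grouping made after the values were seen, was 3.05 with a wide interval of 1.09 to 11.8. Peak 3 (32417794 to 32418401), whose centre lay 11.1 kb past that of peak 2, held 172 ChIP and 25 input reads, 6.21-fold (4.07 to 9.86). Peak 4 (32462152 to 32462372) was the narrowest of the 19 at 220 bp and had the fewest reads, 34 and 7, for 4.38-fold (1.91 to 11.7). Peak 5 (32493999 to 32494390) held 78 and 18 reads, 3.91-fold (2.32 to 6.94). Peak 6 (32522090 to 32522707), 14.2 kb before the transcript end, held 191 and 42 reads, 4.10-fold (2.93 to 5.88). Peaks 5 and 6 lie past the end of a shorter BICD1 transcript of 226 kb with the same start site, to which the authors assigned peak 1. The interval of peak 2 does not overlap those of peaks 5 and 6, a contrast picked after the values were seen. This spread within the gene exceeds counting error only as single intervals give it, with reads taken as independent. Against the local surroundings the order was different: peak 6 had the highest local −log10 p of the 19 peaks, 6.24, and peak 2 had 5.17. Peak 6 also had the highest input density, 0.807, against 0.414 for the median listed peak.

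CLASP2, which encodes a microtubule plus-end stabiliser and lies on the minus strand of chromosome 3, had 3 peaks far apart within its transcripts, none past 5-fold. Peak 1 (33713059 to 33713427) held 59 ChIP and 11 input reads, 4.84-fold (2.52 to 10.2). It lay 46.5 kb after the start site of the longer transcript (222 kb), and 12.3 kb before that of the shorter one (163 kb), to which the authors assigned the other 2 peaks. Peak 2 (33601828 to 33602122) held 53 and 12 reads, 3.99-fold (2.10 to 8.20). Peak 3 (33547485 to 33547848), 9.93 kb before the transcript end, held 69 and 13 reads, 4.79-fold (2.63 to 9.45). The 3 CLASP2 folds overlapped throughout, and the gaps between the peaks were 111 kb and 54.3 kb.

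MAPRE2, the gene of the plus-end protein EB2 on the plus strand of chromosome 18, had a single peak (32581068 to 32581407). It lay 24.3 kb after the start site, 14.6% along a transcript of 167 kb, and held 52 ChIP and 11 input reads. Its fold of 4.27 (2.20 to 9.07) and its local −log10 p of 3.50 were both below the table's medians of 5.01 and 4.20. With 1 peak near the lowest listed ratio, MAPRE2 rests on the fewest reads of the 4 genes.

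**Figure D2:**
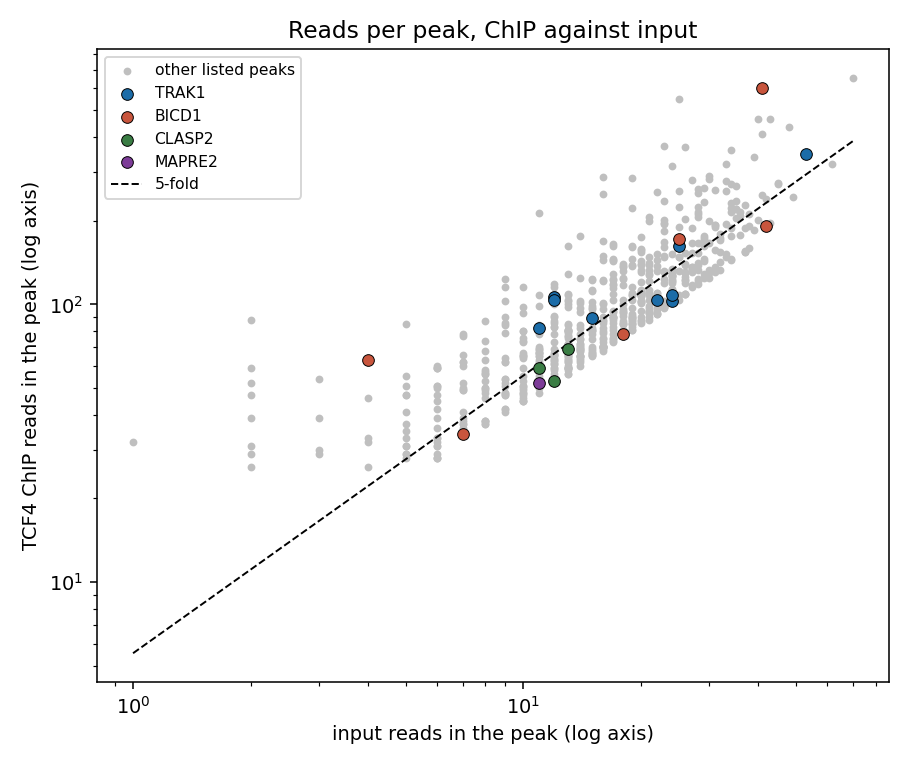
Each point is a listed peak, with input reads (x axis) and TCF4 ChIP reads (y axis) on log scales; grey points are the other 643 listed peaks except the 1 with no input read, coloured points are those of the 4 genes, and the dashed line is a scaled fold of 5. The CLASP2 and MAPRE2 points lie just under the line, at 11 to 13 input reads, and the BICD1 peak with 603 ChIP reads lies well above it.

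Summed over its peaks, BICD1 was enriched 7.52-fold (6.29 to 9.04), TRAK1 5.51-fold (4.73 to 6.43), CLASP2 4.54-fold (3.16 to 6.68) and MAPRE2 4.27-fold (2.20 to 9.07). Among the 6 pairs of genes, the single intervals excluded 1 for BICD1 against CLASP2 (ratio 1.66, 1.08 to 2.50) and for TRAK1 against BICD1 (ratio 0.733, 0.576 to 0.93). Widened for 6 pairs, both included 1 (0.929 to 2.84 and 0.531 to 1.01). The order of the genes also rested on 1 peak. Without peak 2, chosen after its values were seen, BICD1 fell to 5.06-fold (4.06 to 6.35), and its ratio to TRAK1 was 0.919 (0.701 to 1.21). In that peak the ChIP to input ratio was 2.62 times that of the other 5 BICD1 peaks together (1.77 to 3.95).

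**Figure D3:**
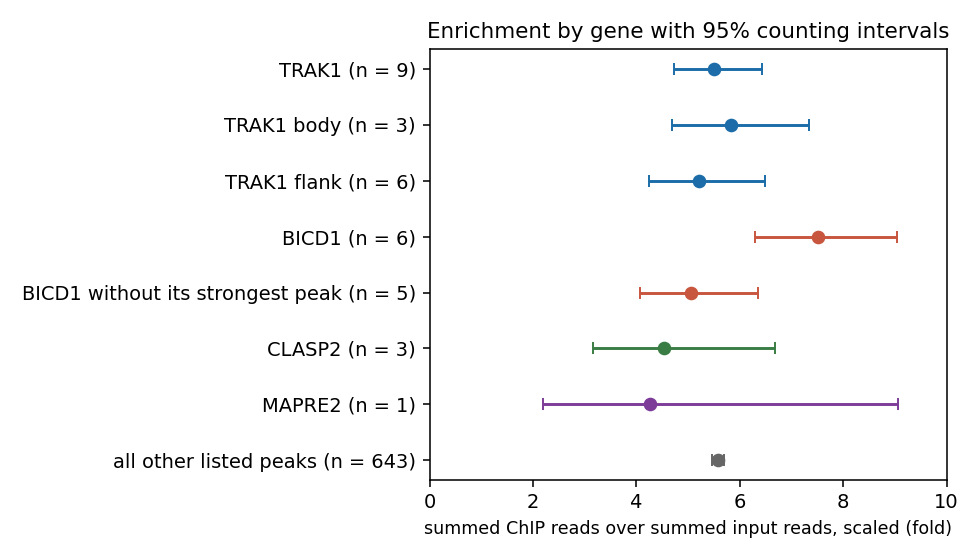
Points give summed ChIP reads over summed input reads, scaled (x axis, fold), with 95% counting intervals, for the peaks of each gene, for TRAK1 split into gene body and upstream flank, for BICD1 without its strongest peak and for the other 643 listed peaks. The intervals of TRAK1 body and flank overlap, and BICD1 moves from 7.52 to 5.06 when 1 peak is left out.

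The peaks formed 14 clusters when neighbouring centres of a gene under 25 kb apart were joined. TRAK1 made 5 clusters, 4 of them pairs, at 7.38-fold (4.77 to 11.9), 5.19-fold (3.63 to 7.61) and 4.16-fold (3.01 to 5.85) upstream and 5.69-fold (4.06 to 8.15) in the body, with peak 9 alone. The 3 upstream pairs had folds that were lower the closer they lay to the start site, but their intervals overlap. Single peaks did not follow this order: towards the start site, TRAK1 peaks 1 to 6 had folds of 6.73, 7.97, 3.87, 7.82, 4.06 and 4.27. In BICD1 only peaks 2 and 3 paired (775 ChIP and 66 input reads, 10.6-fold, 8.24 to 13.8), and no CLASP2 peaks did. No peak of another listed gene lay near these clusters: the closest was 902 kb from the BICD1 peaks, and 1130.5 kb or more from those of the other 3 genes. In a table limited to signature genes, this does not describe the other genes between them.

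Set against the other 643 listed peaks, the 19 peaks did not stand apart in strength. Their median deposited scaled log2 ratio was 2.17 (order-statistic interval 1.98 to 2.64) and that of the others 2.24 (2.22 to 2.29). Folds of 5 or more were found at 9 of the 19 peaks (47.4%), 6 of TRAK1 and 3 of BICD1, where 50.3% of all listed peaks reached that fold. The summed fold of BICD1, 7.52 (6.29 to 9.04), lay above that of the other 643 listed peaks, 5.58 (5.47 to 5.69). Without peak 2 it was 5.06 (4.06 to 6.35). The median width of the 19 peaks was 445 bp, against 424 bp for the others. Deposited input densities were a median of 0.452 at TRAK1 and 0.424 at CLASP2, where the other listed peaks of chromosome 3 had 0.457. BICD1 had 0.493 against 0.341 at the other listed peaks of chromosome 12, and MAPRE2 had 0.385 against 0.376 for chromosome 18. The part of input density in the folds of BICD1 was not tested.

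By position, 13 of the 19 peaks lay within the assigned transcript, 68.4% (Wilson interval 46.0 to 84.6), against 51.5% (47.6 to 55.3) of the others. The Wilson intervals also take each peak as a separate draw, although position went with the gene, so no comparison rests on them. None of the 19 was marked as promoter and none as downstream, where 36 and 163 of the other 643 were. Promoter marks were rare in the whole table, so having none among 19 does not set these peaks apart. Downstream marks were not rare, and their absence here was not tested. Every flank peak of the 4 genes was upstream and belonged to TRAK1. The gene body share differed between the genes: 3 of 9 at TRAK1 and all 10 peaks at the other 3. Among the genes with as many or more peaks than TRAK1, 10 of 10 lay within NEDD4L, a ubiquitin ligase gene, 7 of 10 within FOXP1, a forkhead transcription factor gene, and 7 of 9 within BCL2, the anti-apoptotic gene. TRAK1, with 3 of 9, had the smallest share of the 4. All peaks were inside the transcript at 16 of the 95 genes with 3 or more peaks, BICD1 and CLASP2 among them.

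The 4 genes are long. Their longest assigned transcripts ranked 10 (BICD1), 13 (CLASP2), 21 (MAPRE2) and 43 (TRAK1) of 275, where the median was 41.8 kb. Across the 275 genes, Spearman's rho between this length and the number of peaks within the transcript was 0.617, and that with all listed peaks of the gene was 0.38, both descriptions in which all points share 1 library and a longer transcript gives more room for a peak. Per 100 kb of transcript, TRAK1 had 2.47 body peaks, BICD1 2.17, CLASP2 1.35 and MAPRE2 0.60. The TRAK1 rank and density rest on the assigned transcript, while the RefSeq record of TRAK1 is over 10% longer than both its recovered transcripts together. By total ChIP reads TRAK1 ranked 3 and BICD1 5 of 275, while CLASP2 ranked 137 and MAPRE2 265. Peak 2 of BICD1 alone held 603 of the 1141 ChIP reads of that gene.

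**Figure D4:**
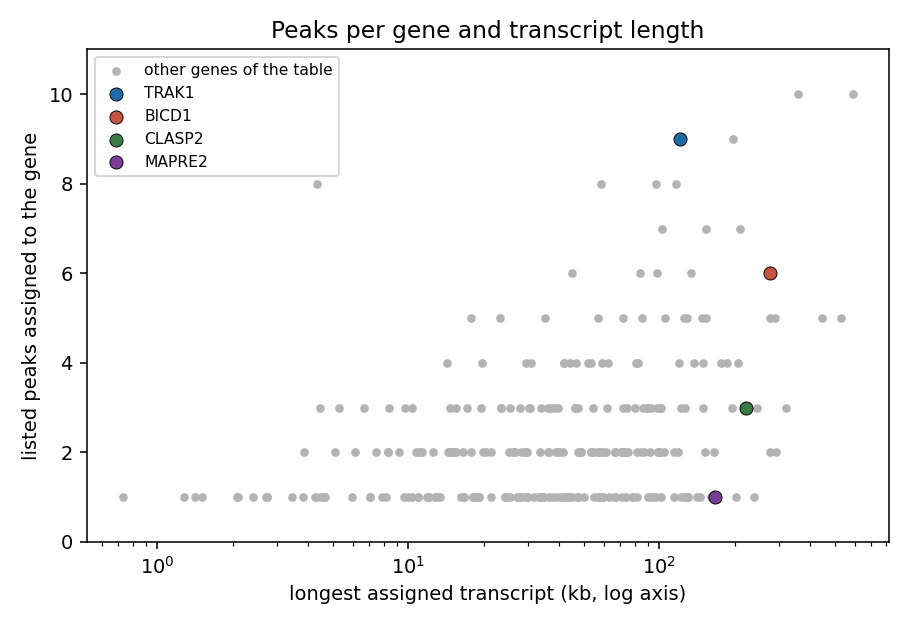
Each point is a gene of the table, with its longest assigned transcript (x axis, kb, log scale) and the number of listed peaks assigned to it (y axis); the 4 transport genes are coloured. MAPRE2 has 1 peak and TRAK1 9, although the assigned MAPRE2 transcript (167 kb) is longer than that of TRAK1 (121 kb). Of the 9 TRAK1 peaks, 6 lie outside the assigned transcript.

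In a wider list of 103 genes of motors, motor adaptors and microtubule plus-end and lattice proteins, 6 genes had a listed peak, the 4 described above and 2 more, BICD2 and DYNLRB1. Without the 4, which entered the list because they were known to have peaks, this was 2 of 99 genes (2.02%), where 1.34% of protein-coding genes had a listed peak. BICD2, the paralogue of BICD1 and likewise a dynein adaptor, had 2 peaks on chromosome 9, both within its transcript. One (95525233 to 95525774), 1.58 kb from the start site and marked as promoter, held 153 ChIP and 27 input reads, 5.11-fold (3.38 to 8.01). The other (95507744 to 95508455), 19.0 kb from the start site, held 146 and 19 reads, 6.94-fold (4.29 to 11.9). DYNLRB1, a light chain of cytoplasmic dynein, had 1 peak on chromosome 20 (33092884 to 33093272), 11.1 kb upstream, with 56 and 8 reads, 6.32-fold (2.996 to 15.3). Both genes were marked Up, as were 229 of the 275 listed genes. Only signature genes with a peak are listed, so a gene of the wider list without a row says nothing about binding near it.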

How the data were processed

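TCF4 ChIP and input DNA were sequenced from SU-DHL-2 cells, 1 library each. The submitters' processing notes name BWA, GATK and the build hg19, with no role or version. No source used here gives the peak caller. Per the file headers, the authors deposited whole-read counts of TCF4 and of a column headed IC, taken as the input, since no other library is in the series. The deposited normalized signal equals reads per peak width over 1 constant per library (93.5 M and 84.4 M if in RPKM). The deposited log2 ratio uses reads plus 1, and the scaled one is lower by 0.15 throughout. Deposited −log10 p-values are the authors' and were only described or used to filter. Whether coordinates count from 0 or 1 is not stated.

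Folds are ChIP over input reads scaled by the 2 constants, with exact binomial intervals. Ratios of folds are conditional odds ratios with exact intervals. Both kinds of interval were tried on simulated independent reads, so dependence among reads was not covered. For the odds ratios, the simulated input reads were more than any single peak of the 4 genes held. Start sites and transcript lengths were recovered from the authors' distances, with the strand from RefSeq (GRCh38.p14), and agreed among the peaks of each of the 3 transcripts with more than 1 peak; the other 4 rest on 1 peak each. Gene names were matched to RefSeq by symbol (266), or by accession or synonym (9). The members and lists were chosen with earlier results of these data known, and there are no replicates, so no p-value was computed. Every peak of the 4 genes was named, as were the other list genes with a peak and the genes with as many peaks as TRAK1. Analyses used scipy 1.17.1, numpy 2.4.6 and pandas 2.3.3 under Python 3.11.15. Alternatives were peaks at or above the table's median ChIP reads or local −log10 p, other gaps, folds and pseudocounts, and leaving out each gene. Peak sequences were not read, since no hg19 genome was used here.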

Additional observations from a re-analysis of the deposited data

How the results depend on the processing

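Of 39 alternative values, 33 stayed within 1.5 times the count or within the interval of the value reported. All but the ratios of body over flank folds were counts, shares or medians, which could not reverse. Those ratios all stayed above 1, and the value of 1.42 below is among the 33. Requiring ChIP reads at or above the table's median kept 10 of the 19 peaks, all of TRAK1 or BICD1. Among these the ratio of body over flank folds, 1.23 (0.958 to 1.58) with all peaks, was 1.42 with an interval above 1 (1.08 to 1.87). These 10 peaks were kept by their ChIP reads, the numerator of the fold, so the interval is not independent of the filter. They include the BICD1 peak of 603 reads, and the ratio without it was not computed among these 10. All flank peaks are of TRAK1 (5 among these, 6 in all), so the ratio also compares genes. With no limit on reads it was 1.03 without BICD1, and without the BICD1 peak of 603 reads, an alternative chosen after seeing the data, 1.01. A limit of 4-fold was passed by 16 peaks in place of 9 at 5-fold. Joining centres under 50 kb apart left 9 clusters, and under 10 kb 18. Counting only peaks up to 10 kb from the start site, the transport list had 2 genes, TRAK1 and BICD2. Without TRAK1 the share within the transcript was 100% and 3 peaks passed 5-fold, by construction, since TRAK1 holds every flank peak and 6 of the 9. No paired analysis was possible because each group has 1 library. Few input reads lie behind some folds: the first BICD1 peak rests on 4 input reads, the fourth on 7, and no more than 13 lie behind any CLASP2 or MAPRE2 peak.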
